A study of Danio rerio with 3 samples.

Results

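Cilia genes were followed in zebrafish embryos (Danio rerio, Tuebingen strain) in which the RNA-binding protein gene hnrnpaba, a counterpart of human HNRNPAB, was targeted with a morpholino, a synthetic antisense oligomer. The genes were 37 symbols chosen by name for their known part in cilia: transcriptional regulators, intraflagellar transport (IFT) and Bardet-Biedl syndrome (BBS) genes, kinesin motors, and genes of dynein assembly and the axoneme. In all 33 of the 37 were found by symbol among the 25961 genes of the deposited table, and ift43, ift81, ift122 and ccdc114 were not found by symbol and are not analysed here. The embryos were injected at the 1-cell stage, raised at the same temperature and collected whole at 24 hours post fertilization. The 3 groups received the hnrnpaba morpholino (HNRNPAB in the sample titles) at 3 ng, the same morpholino at 6 ng, or a standard control morpholino at 3 ng, with 1 library from 30 pooled embryos in each. All 3 groups were thus injected with a morpholino, and the 6 ng group has no control of the same mass. Whether the morpholino blocks translation or splicing is not stated in the labels.

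Cilia are microtubule-based projections that sense signals or beat to move fluid. Motile cilia are assembled under the forkhead factor Foxj1 together with RFX factors. IFT-B and IFT-A complexes carry cargo along the axoneme with kinesin-2 and dynein-2 motors, and the BBSome carries membrane proteins in and out of the cilium. In the zebrafish embryo, motile cilia drive fluid in Kupffer's vesicle, which sets left-right asymmetry, and beat in the pronephric ducts, the ear vesicle and the central canal of the spinal cord.

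Levels are FPKM (fragments scaled by gene model length and by the library's total), so genes can be compared per length. Differences are log2 ratios of FPKM + 1, which understate the change of low genes, and genes are called higher or lower where that difference reaches 2-fold. A fold given for a single gene is the plain ratio of its FPKM values, followed in brackets by an exact 95% interval (Clopper-Pearson) from the fragments recovered from those values. Such an interval holds counting error alone, not the variation among pools of embryos. With 1 library per group there is no replicate check and no test, and each statement describes these libraries. Total fragments were 17748075 at 3 ng, 13557636 at 6 ng and 14589056 in the control, and the cilia genes had a median of 414 fragments summed over the 3 libraries, between 11 and 2868. The targeted gene hnrnpaba stood at 459 FPKM at 3 ng and 342 FPKM at 6 ng, against 442 FPKM in the control, which is 1.04-fold (1.02 to 1.06) and 0.773-fold (0.755 to 0.793). A morpholino need not lower its target's transcript, so these levels do not check the labels. In whole embryos, fewer cells of a type and less RNA per cell cannot be told apart.

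The regulators foxj1a and foxj1b were higher and rfx3 was lower in the hnrnpaba morphant libraries than in the control, while most transport, BBS and motility genes stood closer to it. Of the 33 genes, 30 averaged at least 1 FPKM across the 3 libraries, and kif17, dnaaf3 and tekt1 averaged less. At 3 ng 1 of these 30 genes (foxj1b) was at least 2-fold higher, against a background of 3.68% of all 16429 genes that passed the same filter. There were 2 lower genes at 3 ng, rfx3 and bbs2, against a background of 2.2%. At 6 ng 2 genes (foxj1a and foxj1b) were at least 2-fold higher, against 6.28% of all genes, and 1 (rfx3) was at least 2-fold lower, against 4.53%. The share past 2-fold in either direction was thus 10.0% of the cilia genes at each dose, beside 5.87% of all genes at 3 ng and 10.8% at 6 ng. The cilia genes as a whole were therefore no more often past 2-fold than other genes at 6 ng, and at 3 ng the excess amounts to few genes.

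The median difference of the 30 genes was 0.13 at 3 ng and 0.20 at 6 ng, beside medians of 0.02 and 0.08 over all genes. The number above the control was 19 of 30 at 3 ng, which is 63.3%, beside 51.9% of all genes. It was again 19 of 30 at 6 ng, beside 56.0% of all genes. Over all 33 genes without the filter the medians were 0.12 at 3 ng and 0.22 at 6 ng. Both comparisons use the same control library, so the count at 6 ng is not a second observation of the count at 3 ng.

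**Figure D1:**
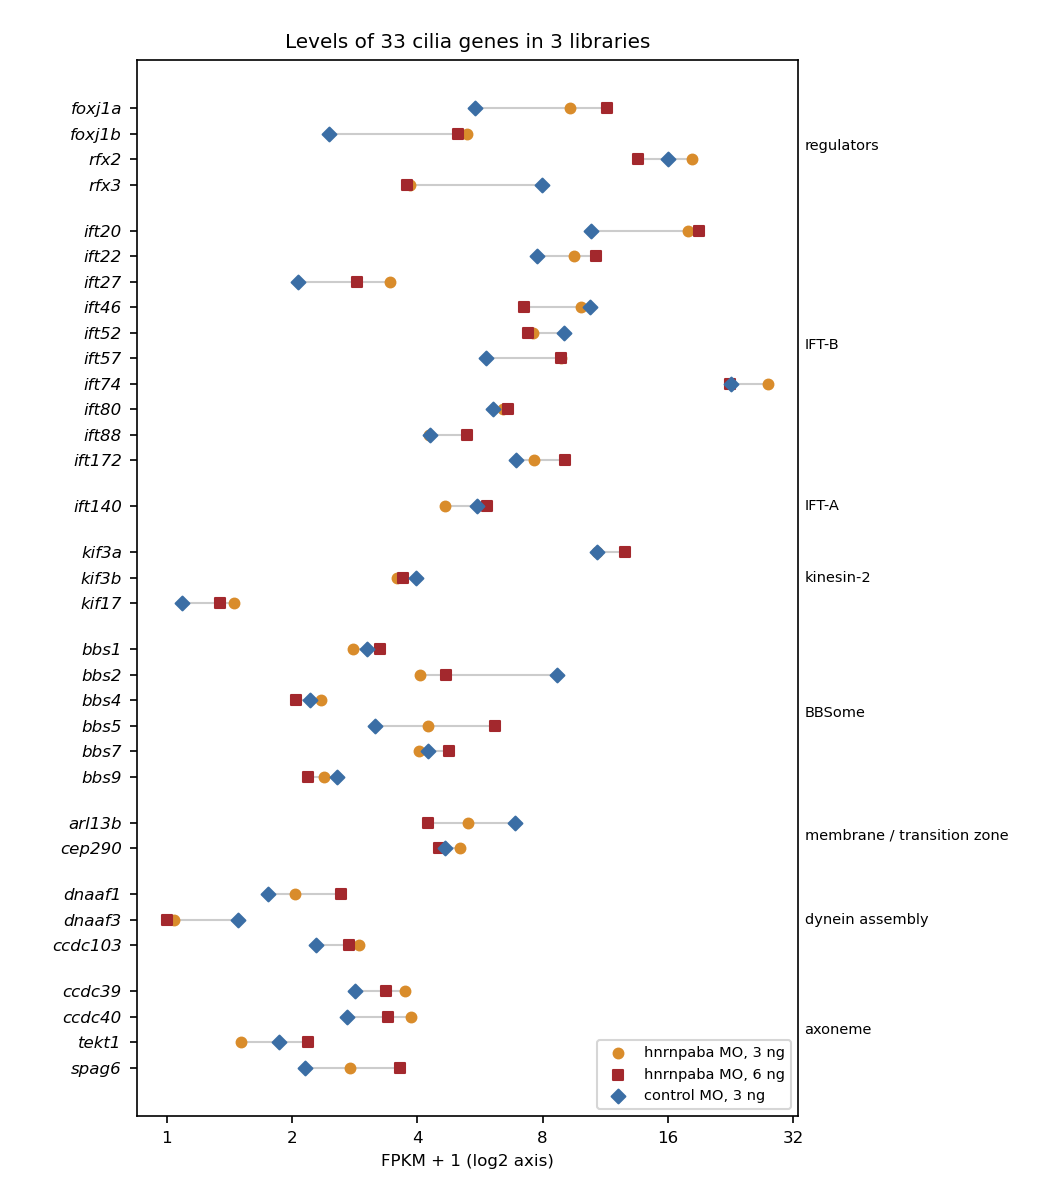
Levels of the 33 cilia genes (rows, grouped by role) as FPKM + 1 on a log2 axis, 1 marker per library, with a grey line from the lowest to the highest library. foxj1a and foxj1b lie well to the right of their control markers in both morphant libraries, and rfx3 and bbs2 lie well to the left of theirs.

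Among the regulators, foxj1a and foxj1b encode forkhead factors that switch on motile cilia genes, and in zebrafish foxj1a is the factor required in Kupffer's vesicle and the floor plate. foxj1a (ENSDARG00000101919, chromosome 3, 60716904 to 60733722, plus strand, build not given) stood at 8.29 FPKM at 3 ng and 10.4 FPKM at 6 ng, against 4.51 FPKM in the control. That is 1.84-fold (1.61 to 2.11) the control at 3 ng and 2.31-fold (2.02 to 2.65) at 6 ng. These rest on 702 and 674 fragments in the morphant libraries and 314 in the control, so counting error is a small part of the difference. The difference at 6 ng, 1.05 on the log2 scale, lies near the 2-fold limit and was 0.97 when libraries were rescaled by their median ratio.

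The paralog foxj1b (ENSDARG00000088290, chromosome 12, 20149305 to 20157014, plus strand) stood at 4.28 FPKM at 3 ng and 4.01 FPKM at 6 ng, against 1.45 FPKM in the control. Its folds were 2.95 (2.14 to 4.14) and 2.77 (1.97 to 3.93), on 176 and 126 fragments in the morphant libraries and 49 in the control. Both morphant libraries were above the control by a similar amount, and their own ratio of 0.937 (0.740 to 1.18) at 6 ng over 3 ng spans 1. The log2 difference at 6 ng, 1.03, was 0.96 after the median-ratio rescaling. The foxj1b span shares 254 bases with mgrn1a on the same strand, whose level was 3.03 FPKM at 3 ng and 4.03 FPKM at 6 ng, against 4.26 FPKM in the control. The part of shared reads in either level was not tested.

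RFX factors bind the X-box in promoters of cilia genes and act in both sensory and motile cilia. rfx3 (ENSDARG00000014550, chromosome 10, 600164 to 641609, minus strand) stood at 2.84 FPKM at 3 ng and 2.79 FPKM at 6 ng, against 6.95 FPKM in the control. The folds were 0.408 (0.331 to 0.502) and 0.401 (0.317 to 0.503), on 140 and 105 fragments against 282. Its difference of -1.05 at 3 ng had 1.86% of all genes below it, and that of -1.07 at 6 ng had 3.88%. rfx2, which in zebrafish is required for cilia of Kupffer's vesicle, was the most abundant regulator and stood apart from rfx3, with 17.3 FPKM at 3 ng and 12.6 FPKM at 6 ng, against 15.0 FPKM in the control. The 3 ng library was above the control, at 1.15-fold (1.06 to 1.26), and the 6 ng library below it, at 0.838-fold (0.759 to 0.926).

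**Figure D2:**
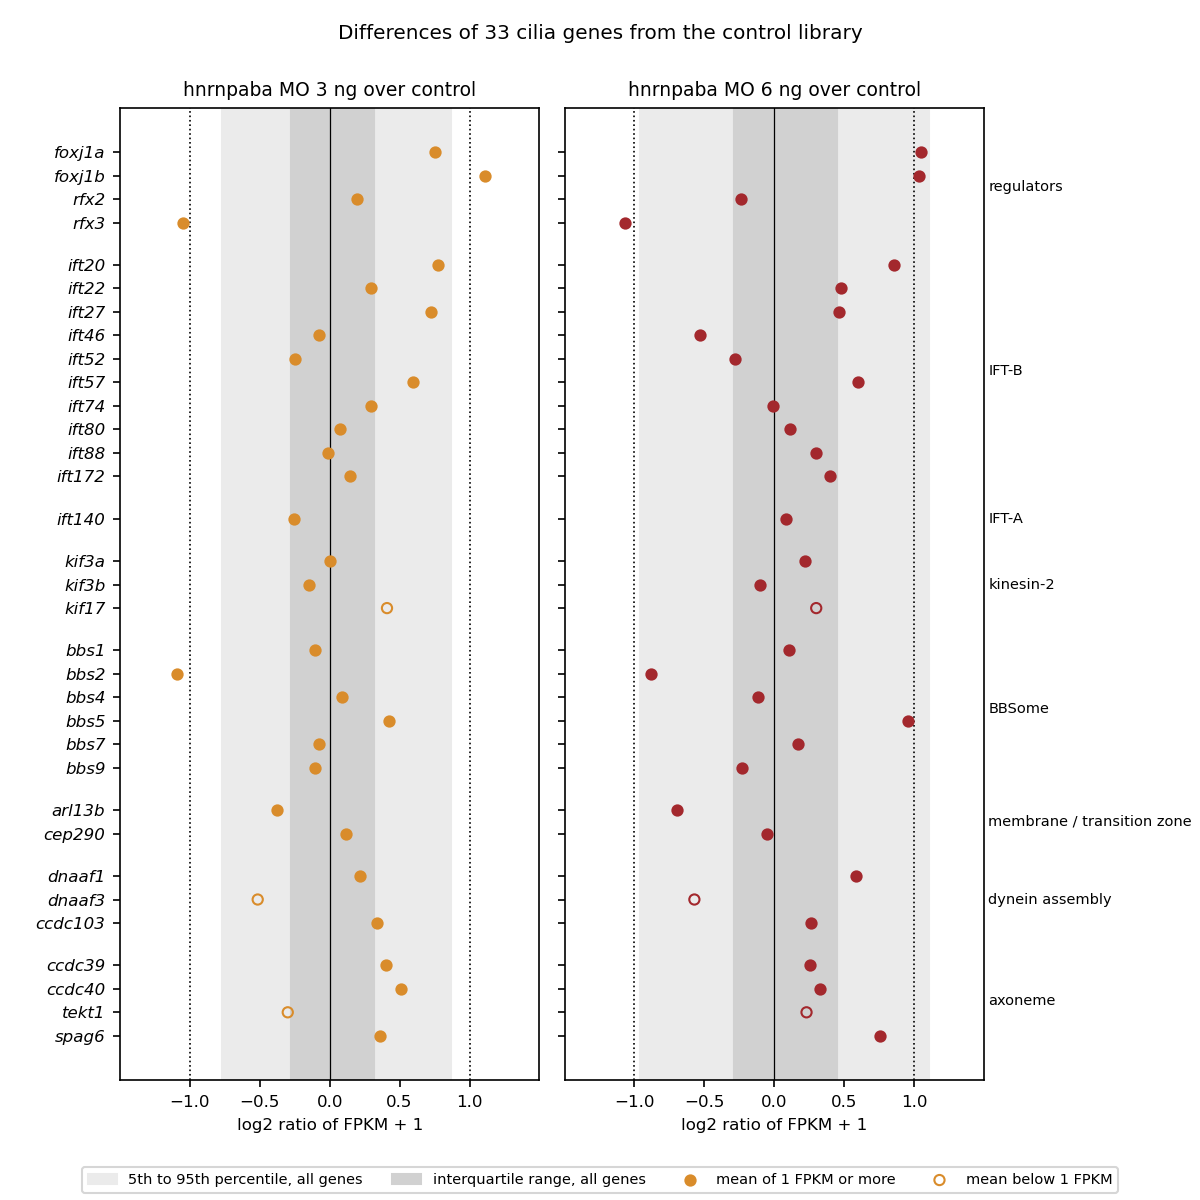
Log2 ratio of FPKM + 1 for each cilia gene, hnrnpaba morpholino 3 ng over control (left) and 6 ng over control (right), with the interquartile range and the 5th to 95th percentile of all 16429 genes shaded and the 2-fold limits dotted. Open circles are kif17, dnaaf3 and tekt1, whose mean is below 1 FPKM; at 3 ng foxj1b, rfx3 and bbs2 lie outside the 5th to 95th percentile, and at 6 ng rfx3 does.

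The IFT-B complex, which moves cargo towards the ciliary tip, was covered by 10 genes. Of these 0 were past 2-fold at either dose on the log2 scale of FPKM + 1. Over all genes 5.87% were past 2-fold at 3 ng and 10.8% at 6 ng, so 0 of 10 does not set these genes apart. The median of the 10 IFT-B genes was 0.22 at 3 ng and 0.35 at 6 ng, beside 0.02 and 0.08 over all genes. At each dose 7 of the 10 (70.0%) were above the control, beside 51.9% and 56.0% of all genes. On the log2 scale of FPKM + 1 the highest in both comparisons was ift20, which encodes the subunit that also sits at the Golgi and sorts membrane cargo to the cilium. ift20 stood at 16.9 FPKM at 3 ng and 18.0 FPKM at 6 ng, against 9.48 FPKM in the control. Its folds were 1.78 (1.48 to 2.16) and 1.90 (1.56 to 2.31). ift57, whose product is another subunit of the peripheral part of IFT-B, stood at 7.86 FPKM at 3 ng and 7.85 FPKM at 6 ng, against 4.85 FPKM in the control, with folds of 1.62 (1.28 to 2.07) and 1.62 (1.26 to 2.09). Morphant levels of ift57 were nearly equal at the 2 doses.

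ift27 encodes a small GTPase of IFT-B that pairs with IFT25 (encoded by hspb11) and links IFT to export of the BBSome. It stood at 2.43 FPKM at 3 ng and 1.86 FPKM at 6 ng, against 1.07 FPKM in the control. Its folds were 2.26 (1.74 to 2.98) and 1.73 (1.29 to 2.33), and it was past 2-fold at 3 ng without the pseudocount but not with it. Its partner hspb11, from the list of other IFT genes, stood at 16.9 FPKM at 3 ng and 7.22 FPKM at 6 ng, against 7.56 FPKM in the control. hspb11 was thus 2.24-fold higher (1.8 to 2.80) at 3 ng only, and at 6 ng its fold of 0.954 (0.724 to 1.26) spanned 1. The ratio of 6 ng over 3 ng was 0.427 (0.338 to 0.535) for hspb11 and 0.766 (0.608 to 0.960) for ift27. The ift27 span shares 3886 bases with cacng2b on the opposite strand, a gene at 0.282 FPKM at 3 ng and 0.470 FPKM at 6 ng, against 0.312 FPKM in the control.

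Other IFT-B genes were closer to the control. ift22, a second small GTPase gene of the complex, stood at 8.54 FPKM at 3 ng and 9.77 FPKM at 6 ng, against 6.75 FPKM in the control, and ift172, the gene of the largest subunit, at 6.64 FPKM and 8.06 FPKM, against 5.89 FPKM. At 6 ng the intervals of both lay above 1, with folds of 1.45 (1.10 to 1.91) for ift22 and 1.37 (1.11 to 1.69) for ift172. ift74, the most abundant of the 33 genes, stood at 26.8 FPKM at 3 ng and 21.6 FPKM at 6 ng, against 21.7 FPKM in the control. ift80 (5.41 FPKM at 3 ng, 5.60 FPKM at 6 ng and 5.10 FPKM in the control) and ift88 (3.26, 4.27 and 3.29 FPKM in the same order) had intervals that held 1 in every comparison. The ift88 intervals rest on 35, 35 and 29 fragments at a recovered length of 604 bases. A length short by a common factor would widen them, so that they held 1 does not show that ift88 was unchanged. The ift88 span shares 308 bases with il17d on the same strand. il17d stood at 0.794 FPKM at 3 ng and 1.39 FPKM at 6 ng, against 0.429 FPKM in the control, and the part of shared reads was not tested. In zebrafish, loss of ift88 or ift172 blocks cilia formation and gives cystic kidneys.

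Below the control among IFT-B genes were ift46 and ift52, whose products bind each other in the core of the complex. ift46 stood at 8.88 FPKM at 3 ng and 6.20 FPKM at 6 ng, against 9.40 FPKM in the control, and its fold at 6 ng was 0.660 (0.529 to 0.822). ift52 stood at 6.58 FPKM at 3 ng and 6.39 FPKM at 6 ng, against 8.0 FPKM in the control, with folds of 0.822 (0.681 to 0.992) and 0.799 (0.651 to 0.978). The IFT-B genes therefore went both ways, between -0.25 and 0.77 at 3 ng and between -0.53 and 0.86 at 6 ng.

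ift140 is the only IFT-A gene of the set that was found by symbol, and IFT-A returns cargo to the ciliary base. It stood at 3.67 FPKM at 3 ng and 4.89 FPKM at 6 ng, against 4.56 FPKM in the control, with folds of 0.804 (0.687 to 0.942) and 1.07 (0.917 to 1.26). The kinesin-2 motor genes kif3a and kif3b, whose products pair in the heterotrimeric motor of anterograde transport, stayed near the control. kif3a stood at 9.80 FPKM at 3 ng and 11.6 FPKM at 6 ng, against 9.80 FPKM in the control, which is 1.00-fold (0.885 to 1.13) and 1.18-fold (1.04 to 1.34). kif3b stood at 2.58 FPKM at 3 ng and 2.70 FPKM at 6 ng, against 2.97 FPKM in the control, and both its intervals held 1. kif17, the homodimeric kinesin-2 gene, was low, with 12 fragments at 3 ng, 7 at 6 ng and 2 in the control. The ratio at 3 ng was 4.93, with an interval of 1.10 to 45.4 that shows how little its 2 control fragments fix.

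**Figure D3:**
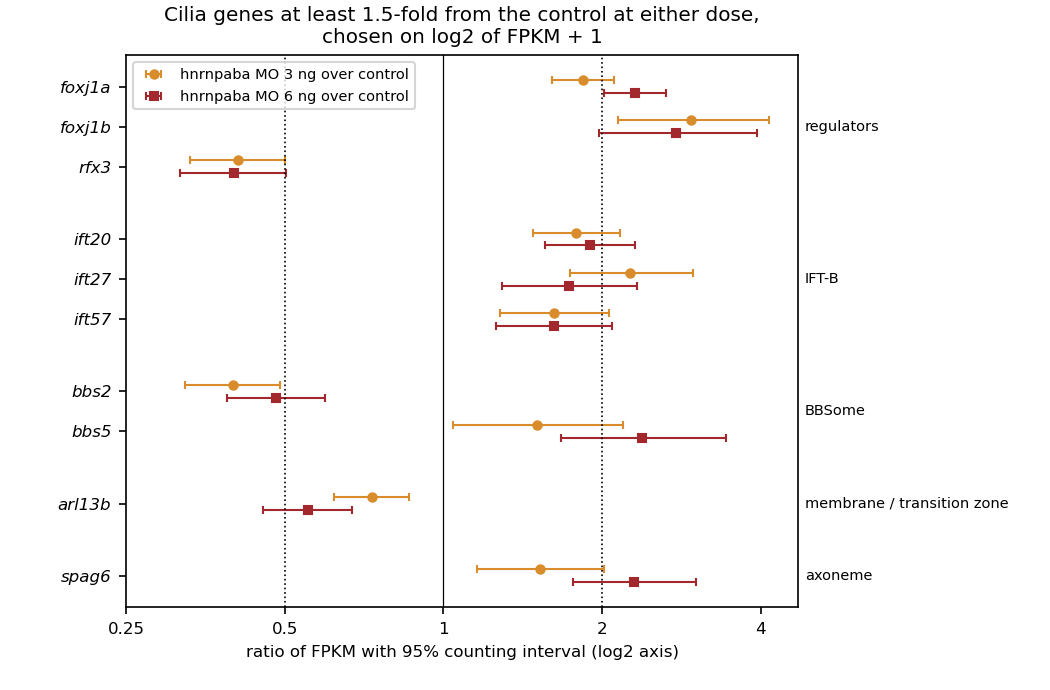
Ratio of FPKM to the control with its 95% counting interval (log2 axis) for the 10 cilia genes whose log2 ratio of FPKM + 1 reached 1.5-fold at either dose, 3 ng as circles and 6 ng as squares. The intervals of foxj1a, foxj1b, ift20, ift27, ift57, bbs5 and spag6 lie above 1 and those of rfx3, bbs2 and arl13b lie below 1 at both doses; the bars leave out differences between pools of embryos.

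The BBSome genes parted from each other. bbs2 (ENSDARG00000041621, chromosome 18, 17516569 to 17531483, minus strand), which encodes a core subunit, stood at 3.06 FPKM at 3 ng and 3.69 FPKM at 6 ng, against 7.66 FPKM in the control. Its folds were 0.400 (0.324 to 0.491) and 0.482 (0.389 to 0.595), so both morphant libraries lay below the control, and its difference of -0.88 at 6 ng was short of the 2-fold limit on the pseudocount scale. Centring on genes of like length, which was added after seeing the data, took it to -1.01. bbs5, whose product binds phosphoinositides in the membrane, went the other way, with 3.25 FPKM at 3 ng and 5.14 FPKM at 6 ng, against 2.16 FPKM in the control. Its folds were 1.5 (1.04 to 2.19) and 2.38 (1.67 to 3.44), and the 6 ng library was also above the 3 ng library, at 1.58-fold (1.18 to 2.13).

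The remaining BBSome genes bbs1, bbs4, bbs7 and bbs9 lay between 0.757-fold and 1.16-fold of the control in both comparisons, and every interval held 1. bbs1 stood at 1.81 FPKM at 3 ng and 2.26 FPKM at 6 ng, against 2.02 FPKM in the control, bbs4 at 1.35 FPKM and 1.04 FPKM, against 1.21 FPKM. bbs7, which encodes a partner of BBS2 in the core, stood at 3.03 FPKM at 3 ng and 3.78 FPKM at 6 ng, against 3.25 FPKM in the control. bbs9 stood at 1.39 FPKM and 1.19 FPKM, against 1.57 FPKM. The median of the 6 genes was -0.09 at 3 ng and -0.003 at 6 ng, with 1 of 6 (bbs2) at least 2-fold lower at 3 ng and 0 past 2-fold at 6 ng, on the log2 scale of FPKM + 1.

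arl13b encodes a small GTPase of the ciliary membrane that is needed for Hedgehog signalling in vertebrates, and in zebrafish its loss gives cystic kidneys and a curved body. It stood at 4.29 FPKM at 3 ng and 3.24 FPKM at 6 ng, against 5.87 FPKM in the control. The folds were 0.732 (0.621 to 0.861) and 0.553 (0.455 to 0.670), and the 6 ng library was below the 3 ng library, at 0.756-fold (0.620 to 0.919). cep290, a component of the transition zone that gates the cilium, stood at 4.07 FPKM at 3 ng and 3.50 FPKM at 6 ng, against 3.67 FPKM in the control, with both intervals against the control holding 1.

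Genes specific to motile cilia were mostly higher than the control, at low levels, and 0 of those that passed the filter was past 2-fold on the log2 scale of FPKM + 1. Over all genes 5.87% were past 2-fold at 3 ng and 10.8% at 6 ng. dnaaf1, which encodes a factor that assembles dynein arms in the cytoplasm, stood at 1.04 FPKM at 3 ng and 1.63 FPKM at 6 ng, against 0.756 FPKM in the control, with folds of 1.37 (0.854 to 2.23) at 3 ng, an interval that held 1, and 2.15 (1.37 to 3.46) at 6 ng. ccdc103, whose product anchors dynein arms and is required for cilia motility in zebrafish, stood at 1.89 FPKM at 3 ng and 1.74 FPKM at 6 ng, against 1.29 FPKM in the control. Its fold of 1.47 (1.00 to 2.19) at 3 ng was at the edge of counting error, and that of 1.35 (0.889 to 2.07) at 6 ng held 1. dnaaf3, another assembly factor gene, had 1 fragment at 3 ng and 0 at 6 ng, against 10 in the control. Its ratio at 3 ng was 0.0822, with an interval of 0.00189 to 0.578, and at 6 ng the interval of its ratio ended at 0.480.

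ccdc39 and ccdc40 encode the partners of the molecular ruler that spaces dynein arms and radial spokes along the axoneme. ccdc39 stood at 2.75 FPKM at 3 ng and 2.37 FPKM at 6 ng, against 1.83 FPKM in the control, and ccdc40 at 2.87 FPKM and 2.41 FPKM, against 1.72 FPKM. The levels of this pair were close to each other in each library, and both were above the control at 3 ng with folds of 1.5 (1.15 to 1.97) and 1.67 (1.29 to 2.18). At 6 ng the folds were 1.30 (0.968 to 1.75) for ccdc39, which held 1, and 1.4 (1.05 to 1.87) for ccdc40. The ccdc40 span shares 7017 bases on the same strand with a gene without a symbol. That gene stood at 0.166 FPKM at 3 ng and 0.0 FPKM at 6 ng, against 0.302 FPKM in the control. spag6, a gene of the central pair apparatus, stood at 1.75 FPKM at 3 ng and 2.64 FPKM at 6 ng, against 1.15 FPKM in the control. Its folds were 1.53 (1.16 to 2.02) and 2.29 (1.76 to 3.02), with 6 ng above 3 ng at 1.5-fold (1.21 to 1.88). tekt1, which encodes a filament protein of doublet microtubules, stood at 0.510 FPKM at 3 ng and 1.18 FPKM at 6 ng, against 0.859 FPKM in the control, and the intervals of its folds against the control held 1.

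Between the morphant libraries, 0 of the 30 genes was past 2-fold or past 1.5-fold on the log2 scale of FPKM + 1 at 6 ng relative to 3 ng, beside 1.11% of all genes higher and 0.992% lower at 2-fold (2.11% in either direction), and 5.17% higher and 3.79% lower at 1.5-fold (8.95%). By the plain ratio of FPKM, bbs5 (1.58), dnaaf1 (1.57, 1.06 to 2.33) and spag6 were past 1.5-fold. The log2 differences ran from -0.46 (ift46) to 0.53 (bbs5), with a median of 0.02 beside 0.05 over all genes. The middle 50% of the cilia genes spanned 0.41 on the log2 scale, beside 0.39 for all genes. The counting interval of the fold lay above 1 for 7 genes, below 1 for 6 and held 1 for 17. Intervals were not counted over all genes, so these numbers have no background beside them and do not set the cilia genes apart. The 7 included foxj1a (1.26-fold, 1.13 to 1.4), bbs5 and spag6, and the 6 included rfx2 (0.726-fold, 0.662 to 0.797), ift46 and arl13b.

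At a 1.5-fold limit on the same scale, 5 of the 30 genes were higher at 3 ng (foxj1a, foxj1b, ift20, ift27 and ift57), against 11.6% of all genes, and 2 were lower (rfx3 and bbs2), against 9.49%. Both directions together made 23.3% of the cilia genes, beside 21.1% of all genes. At 6 ng 6 were higher (foxj1a, foxj1b, ift20, ift57, bbs5 and spag6), against 18.0% of all genes, and 3 were lower (rfx3, bbs2 and arl13b), against 12.2%. Both directions together made 30.0% of the cilia genes, beside 30.3% of all genes, so at this limit too the set was near the background. By the plain ratio of FPKM, bbs5, ccdc39, ccdc40 and spag6 at 3 ng and ift27, dnaaf1 and ift46 at 6 ng were past 1.5-fold as well. Of these ift46 was lower and the others higher. The spread of the cilia genes was not wider than that of all genes, with interquartile ranges of 0.49 at 3 ng and 0.58 at 6 ng, beside 0.59 and 0.73.

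**Figure D4:**
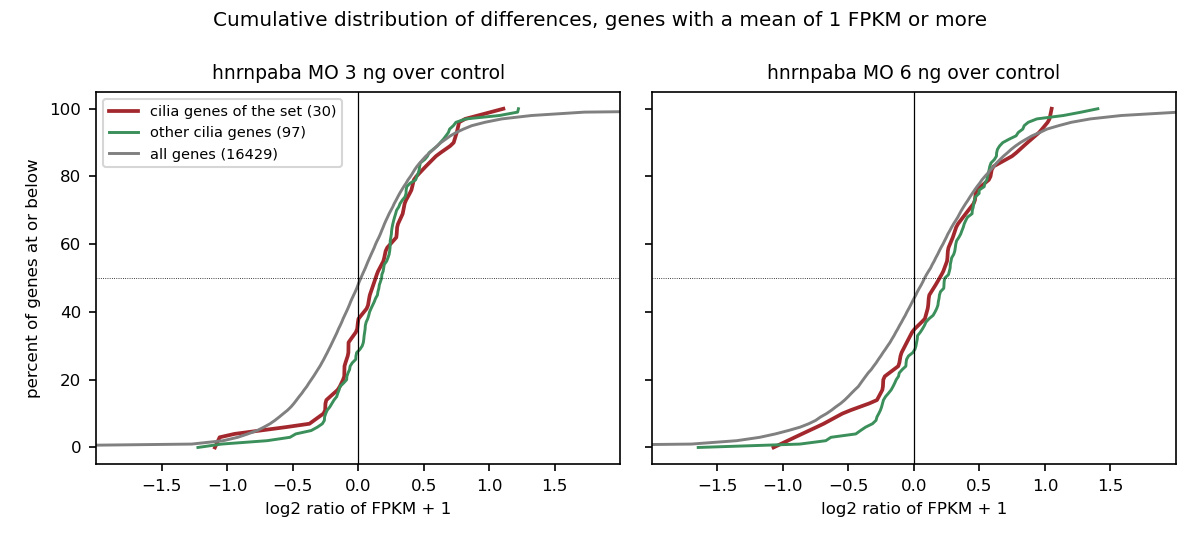
Cumulative percent of genes at or below each log2 ratio of FPKM + 1 against the control, at 3 ng (left) and 6 ng (right), for the 30 cilia genes, 97 other cilia genes and all 16429 genes, each set filtered at a mean of 1 FPKM. The curves of both cilia sets cross 50% to the right of the curve of all genes, at 0.13 and 0.18 against 0.02 at 3 ng and at 0.20 and 0.24 against 0.08 at 6 ng.

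Other cilia genes were taken from 6 lists of 139 symbols, alternative names included, which led to 116 genes of the table, of which 97 passed the filter. At 3 ng 3 of the 97 were at least 2-fold higher and 2 lower, and at 6 ng 3 were higher and 1 lower, so both shares lay near or below the background given above. Their medians were 0.18 at 3 ng and 0.24 at 6 ng, and 69 of 97 were above the control at each dose, which is 71.1%. The list of 47 other motility genes (dynein arms, radial spokes, central pair and assembly factors) had a median of 0.24 at 3 ng and 0.36 at 6 ng, beside 0.02 and 0.08 over all genes. At each dose 38 of 47 (80.9%) were above the control, beside 51.9% and 56.0% of all genes. Some of the 47 passed the filter through the morphant libraries, such as ribc1 and ttll9, at 0.598 and 0.726 FPKM in the control. The share above the control was counted only with the filter. Over all 59 genes of this list without the filter the medians were 0.19 at 3 ng and 0.30 at 6 ng, beside 0.0 and 0.04 over all genes. The 9 genes below the control were not all the same at the 2 doses. The lowest of the 47 at both was ttll6, at 0.625-fold (0.491 to 0.795) and 0.548-fold (0.415 to 0.718). Those below at both included the dynein heavy chain genes dnah5, at 0.691-fold (0.585 to 0.815) and 0.600-fold (0.497 to 0.724), and dnah11, at 0.907-fold (0.767 to 1.07) and 0.757-fold (0.626 to 0.915). Other heavy chain genes averaged below 1 FPKM. Of those, dnah5l was above the control, at 1.33-fold (1.08 to 1.63) and 1.59-fold (1.29 to 1.96). Below it were dnah6 and dnah9 at both doses and dnah7 at 3 ng only. The 18 transition zone genes had medians of 0.12 and 0.12, and the 8 other IFT genes had 0.05 and -0.02. The 7 other RFX and multiciliation genes had -0.15 and 0.09, with 1 of 7 above the control at 3 ng and 4 of 7 at 6 ng. The 9 other motor genes had 0.04 and 0.18, with 5 of 9 above the control at each dose, and the 8 other BBS genes had 0.28 and 0.19. Among the motor genes dync2h1, of the dynein-2 motor, stood at 0.708-fold (0.616 to 0.814) and 0.477-fold (0.401 to 0.566). At 6 ng it was past 2-fold without the pseudocount but not with it.

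The other cilia genes past 2-fold at either dose on the log2 scale of FPKM + 1 were 6. rfx4, an RFX gene of the neural tube, was lower like rfx3, with 7.80 FPKM at 3 ng and 5.56 FPKM at 6 ng, against 19.5 FPKM in the control, and folds of 0.399 (0.357 to 0.446) and 0.285 (0.248 to 0.327). rab8a, which encodes a GTPase of vesicle traffic to the cilium, was 0.462-fold (0.407 to 0.522) at 3 ng and 0.537-fold (0.471 to 0.610) at 6 ng, with 8.84 FPKM and 10.3 FPKM, against 19.1 FPKM in the control. cfap298, a gene required for dynein arms and cilia motility in zebrafish, was higher, with 18.4 FPKM at 3 ng and 19.1 FPKM at 6 ng, against 7.34 FPKM in the control. Its folds were 2.5 (2.12 to 2.97) and 2.61 (2.2 to 3.10).

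cfap300, which encodes a further dynein assembly factor, stood at 2.12 FPKM at 3 ng and 4.46 FPKM at 6 ng, against 1.06 FPKM in the control, with a fold of 4.19 (2.5 to 7.35) at 6 ng. dynll1, a dynein light chain gene whose product also serves cytoplasmic dynein and other complexes, stood at 394 FPKM at 3 ng and 370 FPKM at 6 ng, against 168 FPKM in the control. The sixth gene was hspb11, described with ift27. Of 19 centriole and basal body genes 0 were past 2-fold at either dose, with medians of -0.07 and -0.12. Of 8 genes of flow sensing and left-right asymmetry 5 passed the filter. Of these 5, 0 were past 2-fold, with medians of -0.31 and -0.25, or -0.21 and -0.12 over all 8. Over all genes 5.87% were past 2-fold at 3 ng and 10.8% at 6 ng. The other genes of that list, dand5, spaw and lft2, averaged below 1 FPKM. Of them lft2 stood at 0.320-fold (0.113 to 0.802) at 3 ng, on 7 fragments against 18. At 6 ng it stood at 0.538-fold (0.213 to 1.26).

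**Figure D5:**
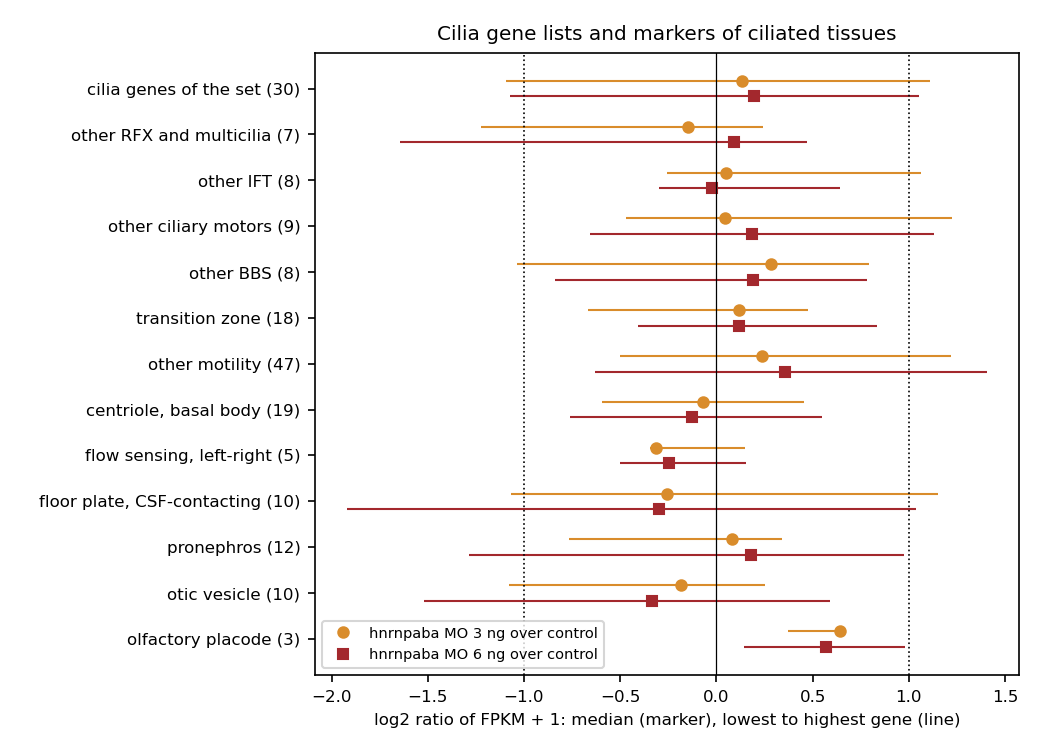
Median (marker) and lowest to highest gene (line) of the log2 ratio of FPKM + 1 against the control, at 3 ng and 6 ng, for the cilia genes, the other cilia lists and markers of 4 ciliated tissues, with the number of genes that passed the filter in brackets. The medians of the motility list lie at 0.24 and 0.36. Those of the joint list of floor plate and fluid-contacting neuron markers and of the otic vesicle markers lie below 0, with genes on both sides of 0 in each.

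Markers of tissues that carry cilia were measured in the same libraries, and their part in the differences above was not tested. Floor plate and fluid-contacting neuron markers had medians of -0.26 at 3 ng and -0.30 at 6 ng over 10 genes, and the summed level of the 12 genes in the table was 72.1 FPKM at 3 ng and 64.9 FPKM at 6 ng, against 69.5 FPKM in the control. Within them shhb was higher (7.26 and 6.61 FPKM, against 2.72 FPKM), and urp1 at 3 ng and nkx2.2a and nkx2.2b at 6 ng were at least 2-fold lower. shha, named after its values were seen, was also higher, at 1.82-fold (1.65 to 2.01) and 1.75-fold (1.57 to 1.94). Named likewise, pkd2l1 was lower, at 0.724-fold (0.523 to 1.00) and 0.436-fold (0.283 to 0.656). spon1a, which averaged below 1 FPKM, stood at 0.359-fold (0.227 to 0.555) and 0.152-fold (0.0697 to 0.295), on 31 and 10 fragments against 71. Of the 10 genes, 4 lay above the control and 6 below at 3 ng, and 3 above and 7 below at 6 ng. nkx2.2b stood at 0.406 FPKM at 6 ng, against 4.32 FPKM in the control, and nkx2.2a at 0.746 FPKM, against 3.13 FPKM. Pronephros markers had medians of 0.08 and 0.18 over 12 genes and summed to 106 FPKM at 3 ng and 135 FPKM at 6 ng, against 110.4 FPKM in the control, with 1 gene past 2-fold on the log2 scale, lhx1a, which stood at 2.10 FPKM at 6 ng against 6.54 FPKM in the control. At 6 ng 4 pronephros markers were at least 1.5-fold higher and 3 lower, against 18.0% and 12.2% of all genes. Those higher, named after their values were seen, were slc20a1a (plain fold 2.80, 2.09 to 3.78), slc12a1 (2.56, 1.79 to 3.71), cdh17 (1.90, 1.76 to 2.06) and hnf1ba (1.84, 1.58 to 2.15). The 3 lower were lhx1a, pax8 (0.547, 0.397 to 0.746) and mecom (0.606, 0.496 to 0.737). At 3 ng 0 pronephros markers were at least 1.5-fold higher and 2 lower, against 11.6% and 9.49% of all genes. The largest parts of the sum were cdh17 and atp1a1a.4, at 36.6 and 33.6 FPKM at 6 ng, against 19.2 and 23.8 FPKM in the control.

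Otic vesicle markers had medians of -0.18 and -0.34 over 10 genes, with 2 at least 2-fold lower at 3 ng and 3 at 6 ng. pax5 stood at 1.41 FPKM at 3 ng and 0.558 FPKM at 6 ng, against 3.47 FPKM in the control, atoh1a at 5.84 FPKM and 1.67 FPKM, against 4.75 FPKM, and atoh1b at 3.71 FPKM and 4.86 FPKM, against 8.95 FPKM. otx1 stood at 11.2 FPKM and 7.34 FPKM, against 16.6 FPKM, and several of these genes are also expressed in the brain. Other ear markers, named after their values were seen, were otomp, at 0.425-fold (0.318 to 0.564) at 3 ng and 0.608-fold (0.459 to 0.801) at 6 ng, and otop1, at 1.2-fold (0.870 to 1.65) and 1.69-fold (1.24 to 2.33). Likewise eya1 stood at 1.11-fold (1.05 to 1.18) and 1.26-fold (1.18 to 1.34), and stm at 0.791-fold (0.714 to 0.876) and 1.11-fold (1.00 to 1.22). oc90 was near the control, at 0.979-fold (0.900 to 1.06) and 0.966-fold (0.883 to 1.06). The summed level of the 12 ear markers was 223 FPKM at 3 ng and 233 FPKM at 6 ng, against 245 FPKM in the control. It came mostly from sparc, at 131, 137 and 136 FPKM in the same order. There were 7 olfactory placode markers, of which 3 passed the filter, with medians of 0.64 and 0.57. Of these 3, 0 were past 2-fold on the log2 scale of FPKM + 1. Over all genes 5.87% were past 2-fold at 3 ng and 10.8% at 6 ng. The 3 ng median of the 3 markers was that of gng13a, with 19 fragments against 7 and a plain fold of 2.23 (0.898 to 6.28) that held 1. Over all 7 markers without the filter the medians were -0.03 at 3 ng and 0.14 at 6 ng. Their sum of 63.6 FPKM at 3 ng and 77.5 FPKM at 6 ng, against 40.9 FPKM in the control, came mostly from dlx3b, and ompa, a marker of mature olfactory neurons, had 0 fragments in both morphant libraries and 1 in the control, which is too few to compare. The markers of motile multiciliated cells gmnc and mcidas were below 1 FPKM in each library. gmnc at 6 ng was 3.11-fold (1.30 to 8.21) the 3 ng library, on 19 and 8 fragments, and its intervals against the control held 1. From the same list ccno stood at 1.12 FPKM at 3 ng and 1.96 FPKM at 6 ng, against 1.14 FPKM in the control, on 6, 8 and 5 fragments. At 6 ng tp73 was 1.68-fold (1.07 to 2.66) the control, and e2f5 was 0.832-fold (0.565 to 1.22).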

How the data were processed

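The authors deposited 1 table of FPKM values of 25961 genes, listed by Ensembl identifier with symbol and position. Per the labels' protocols, RNA was extracted with Trizol, libraries were sequenced on a BGISEQ-500 and reads were mapped to a zebrafish genome and its genes. Neither an aligner, counter, build or annotation nor the strandedness is named in those labels. The control column names neither a morpholino nor a dose and was matched to the control morpholino library as the 1 control of the series.

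Members were matched by table symbol and other lists also by a gene name table. All were named by known function, and every member is named. Members and lists were chosen with earlier results of these data known. Of genes outside the set, those past 2-fold at either dose are named, at most 4 per tissue list. Further genes are named that this rule did not choose, among them ttll6, several dynein heavy chain genes, dync2h1, lft2, tp73, e2f5 and several tissue markers.

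FPKM of genes of at most 200 bases stepped in whole fragments of their span, which gave the library totals. A gene's fragments then came from the shortest model length at which its values in all 3 libraries were whole, within at most 0.05 fragments (100% of genes). A length can be short by a common factor, which widens intervals. The recovered lengths of ift88 and ift74, 604 and 584 bases, are the shortest of the set. The steps were tested on simulated data. Overlapping genes could share reads (10 of the 33 members). Tools were Python 3.11.15, numpy 2.4.6, pandas 2.3.3 and scipy 1.17.1.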

Additional observations from a re-analysis of the deposited data

How the results depend on the processing

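No paired analysis was possible because each group has 1 library, and for the same reason no library could be left out. Promoter motifs were not run, as no sequence table was used here. With a pseudocount of 0.1 FPKM, 2 cilia genes were at least 2-fold higher at 3 ng (6.11% of all genes), and 5 higher and 2 lower at 6 ng (9.83% and 7.13% of all genes). With 5 FPKM the numbers were 0 and 0 at both doses, beside 0.834% higher and 0.481% lower of all genes at 3 ng and 1.91% and 1.31% at 6 ng, and among the 11 genes that averaged at least 5 FPKM there were 0 higher and 0 lower at 3 ng, and 1 higher and 0 lower at 6 ng (all genes: 2.87% and 1.77%, then 5.57% and 4.04%). Median-ratio rescaling left 0 higher at 6 ng (5.27% of all genes), where foxj1a and foxj1b lie near the limit, and there were 1 higher and 2 lower (4.81% and 5.47% of all genes) after centring on genes of like length, which was added after seeing the data. At 1.5-fold there were 5 higher at 3 ng (11.6% of all genes), and 6 higher and 3 lower at 6 ng (18.0% and 12.2% of all genes). The median of 6 ng over 3 ng, 0.02, became -0.0014 without the filter, -0.038 with the median ratio and -0.037 with length centring. For the 97 other cilia genes, 5 FPKM gave 1 higher and 0 lower at 3 ng (all genes: 0.834% and 0.481%). It gave 1 higher at 6 ng (1.91%) and 0 lower at 6 ng over 3 ng (0.122%). There 0.1 FPKM gave 8 higher and 2 lower at 6 ng (9.83% and 7.13%), and 2 higher at 6 ng over 3 ng (2.59%). The 1.5-fold limit gave 12 higher at 3 ng (12.4% of the 97, beside 11.6% of all genes). At 6 ng it gave 16 higher and 4 lower (16.5% and 4.12%, beside 18.0% and 12.2%). At 6 ng over 3 ng it gave 1 higher (1.03%, beside 5.17%). Of the single-gene differences past 2-fold, 0 changed sign under any rescaling or pseudocount, an outcome fixed in advance. A pseudocount cannot change the sign of a difference. The rescaling factors, between 0.972 and 1.04, were too near 1 to reverse a 2-fold difference. With 5 FPKM 11 of 99 single differences moved by more than the reach of their counting interval, and 0 did under the other settings. Where the cause of a moved count is not fixed by the setting itself, the cause was not tested. Levels near or below 1 FPKM, such as those of kif17, dnaaf3 and tekt1, rest on few fragments, and their intervals are wide.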
